A study of Homo sapiens with 2 samples.

Results

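NEAT1-rich cells under a limit on TOP2A and on HIST1H4C, proposed as cells outside S and G2 phase, made up 454 of the 3836 cells kept from A549, a cell line of epithelial type that was derived from a human lung adenocarcinoma. There were 152 among 1930 squashed cells and 302 among 1906 control cells. A kept cell had at least 1000 unique molecular identifiers (UMIs, each standing for 1 captured RNA molecule), at least 500 genes and at most 20% of its UMIs on mitochondrially encoded genes. A NEAT1-rich cell then had at least 10 NEAT1 UMIs, under 2 TOP2A UMIs and under 5 HIST1H4C UMIs per 10000 of its own UMIs. TOP2A, a topoisomerase of dividing cells, is high in G2 and mitosis, and HIST1H4C, a histone H4 gene, is high in S phase. The cells were thus chosen by their NEAT1, TOP2A and HIST1H4C values, which are given below as a description. KCNQ1OT1, FOS and SOX4 were proposed as markers from these same data and are also only described.

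The squashed library came from cells that had been confined with polydimethylsiloxane (PDMS) micropillars, and the control library from unconfined 2D culture. In both, live cells that had lost a reporter carried on a chromosome, a state of roughly 1 cell in 500, were collected after 48 h of recovery, so reporter loss is shared by squashed and control cells. The study concerns what a past period of confinement leaves behind in such cells. There was 1 library per condition, so no difference has a replicate check, no test was made, and every 95% interval (exact Clopper-Pearson) covers counting error only. Ratios compare 2 libraries, or cells of 1 library, and not conditions. Where the words between conditions are used below, they mean the squashed library over the control library only.

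NEAT1 is a long non-coding RNA that stays in the nucleus, where its long isoform is the scaffold of paraspeckles, bodies that hold RNA-binding proteins such as SFPQ and NONO. It is known to be induced by p53, by hypoxia and by other stresses. MALAT1, transcribed from the neighbouring gene, is a nuclear RNA of splicing speckles. NEAT1 lies at chr11:65422774-65445540 on the plus strand of GRCh38 (ENSG00000245532), and MALAT1 at chr11:65497640-65508073 on the same strand (ENSG00000251562), a gap of 52.1 kb.

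Within the NEAT1-rich cells, the median was 34.3 NEAT1 UMIs per 10000 in squashed cells (range 10.5 to 303) and 46.4 in control cells (range 10 to 532). The lowest member inside the threshold was at 10.5 in the squashed library and 10 in the control library, and the highest cell outside it was at 9.98 in the squashed and just under 10 in the control library. From 10 up to 12 per 10000 there were 6 squashed and 10 control members, and 2 and 6 members rested on fewer than 5 NEAT1 UMIs. NEAT1 had no UMI at all in 58.0% of squashed kept cells and in 44.9% of control kept cells.

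The NEAT1-rich share was 7.88% in the squashed library (95% interval 6.71 to 9.17) and 15.8% in the control library (14.2 to 17.6). The share was lower in the squashed library under each filter that was run. Among cells of at least 10000 UMIs it was 14.7% of 906 (12.4 to 17.2) in the squashed and 22.7% of 1190 (20.3 to 25.2) in the control library. Among cells under the TOP2A and HIST1H4C limits it was 14.6% of 1044 (12.5 to 16.8) in the squashed and 28.0% of 1078 (25.4 to 30.8) in the control library. Without the limit on mitochondrial UMIs it was 13.4% of 2449 squashed cells and 22.4% of 2176 control cells, and with that limit lowered to 10% it was 3.03% (2.18 to 4.11, 40 cells) and 4.06% (3.07 to 5.25, 55 cells), with intervals that overlap. A further 96 squashed and 62 control cells passed the NEAT1 threshold but lay over the TOP2A or HIST1H4C limit.

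NEAT1-rich cells were among the deepest cells of both libraries. Their median was 20324 UMIs and 3844.5 genes in the squashed library, against 8862.5 UMIs and 1681.5 genes in the other squashed cells. In the control library it was 19625 UMIs and 4069 genes, against 11351.5 UMIs and 2297 genes. They also held more mitochondrial RNA, with medians of 11.9% of UMIs against 6.58% in the squashed library and 13.5% against 5.03% in the control library. With each cell thinned to 2000 UMIs, the median number of genes was 839 in NEAT1-rich and 754 in other squashed cells, and 883 in NEAT1-rich and 834 in other control cells. The part that depth and mitochondrial share have in the ratios below was not tested beyond the alternatives given with them.

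TOP2A had a median of 0 UMIs per 10000 in NEAT1-rich cells of both libraries, against 1.43 in other squashed and 1.64 in other control cells. HIST1H4C went against the S phase side of the label, with a median of 2.26 in NEAT1-rich and 0 in other squashed cells, and 2.16 in NEAT1-rich and 0 in other control cells. Its sum over cells ran the other way, at 239 CPM (UMIs summed over cells and scaled to a common total) in NEAT1-rich and 547 CPM in other squashed cells, and at 233 against 295 CPM in control cells. The sum of the G2/M genes without TOP2A had a median of 13.4 UMIs per 10000 in NEAT1-rich and 50.5 in other squashed cells, and of 9.73 in NEAT1-rich and 90.5 in other control cells. The G1/S genes had medians of 5.05 against 11.3 in the squashed library and 5.37 against 14.7 in the control library. The other cells include those over the limits, so these differences are not independent of the rule and do not check the label. Cells under the TOP2A and HIST1H4C limits but below the NEAT1 threshold, called NEAT1-low here, had a G2/M median of 14.0 in the squashed and 51.7 in the control library. Their G1/S median was 4.71 in the squashed library, close to that of NEAT1-rich cells, and 9.64 in the control library. Of 5 epithelial markers only the keratins KRT8 and KRT18 reached 20 CPM. KRT8 stood at 2255 CPM in squashed and 1260 CPM in control NEAT1-rich cells, while EPCAM, an epithelial adhesion protein, had 0 UMIs in NEAT1-rich and in other squashed cells. Markers of other cell types were at or near 0. The 6 fibroblast markers summed to 8.76 CPM in squashed and 14.2 CPM in control NEAT1-rich cells, with COL1A2, COL3A1 and PDGFRB at 0 UMIs in both. Of the immune markers PTPRC and CD3E were at 0 in both, and the sum of the list, 37.9 and 21.5 CPM, was mostly CD68, a lysosomal protein also found outside immune cells. Of the 5 endothelial markers VWF, CDH5 and KDR were at 0 in both, and the sum, 14.7 and 48.9 CPM, was mostly EGFL7. The 2 libraries had 2 barcodes in common among kept cells and 0 among NEAT1-rich cells, and a doublet caller marked 0 squashed and 1 control NEAT1-rich cell.

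MALAT1 was far higher in NEAT1-rich cells of both libraries, per cell and in sum. Its median per cell was 330 UMIs per 10000 in squashed NEAT1-rich cells (range 69.1 to 3379) and 12.3 in other squashed cells (range 0 to 738). In the control library it was 267 in NEAT1-rich cells (range 15.7 to 4768) and 13.6 in other cells (range 0 to 3657). The other cells include the 96 squashed and 62 control cells that passed the NEAT1 threshold but lay over the TOP2A or HIST1H4C limit. MALAT1 was not summed over these cells separately, but some of them were as high as NEAT1-rich cells. The squashed one with most NEAT1, 86.8 UMIs per 10000, had the highest MALAT1 of other squashed cells, 738. Another with 54.0 NEAT1 had 467 MALAT1 UMIs per 10000, while one with 60.5 NEAT1 had 77.8. High MALAT1 was thus not particular to the cells under the TOP2A and HIST1H4C limits. MALAT1 alone took 3.61% of the UMIs of squashed NEAT1-rich cells against 0.623% in other squashed cells, and 2.95% against 0.414% in the control library. Summed over cells it stood at 36097 CPM against 6233 CPM in the squashed library (log2 ratio 2.53) and at 29455 CPM against 4144 CPM in the control library (2.83). Across NEAT1-rich cells, NEAT1 and MALAT1 per 10000 UMIs went together, with a Spearman rho of 0.66 over 152 squashed and 0.72 over 302 control cells; cells of a library share depth and RNA quality, so this is a description. The plot of NEAT1 against MALAT1 shows this cell by cell.

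**Figure D1:**
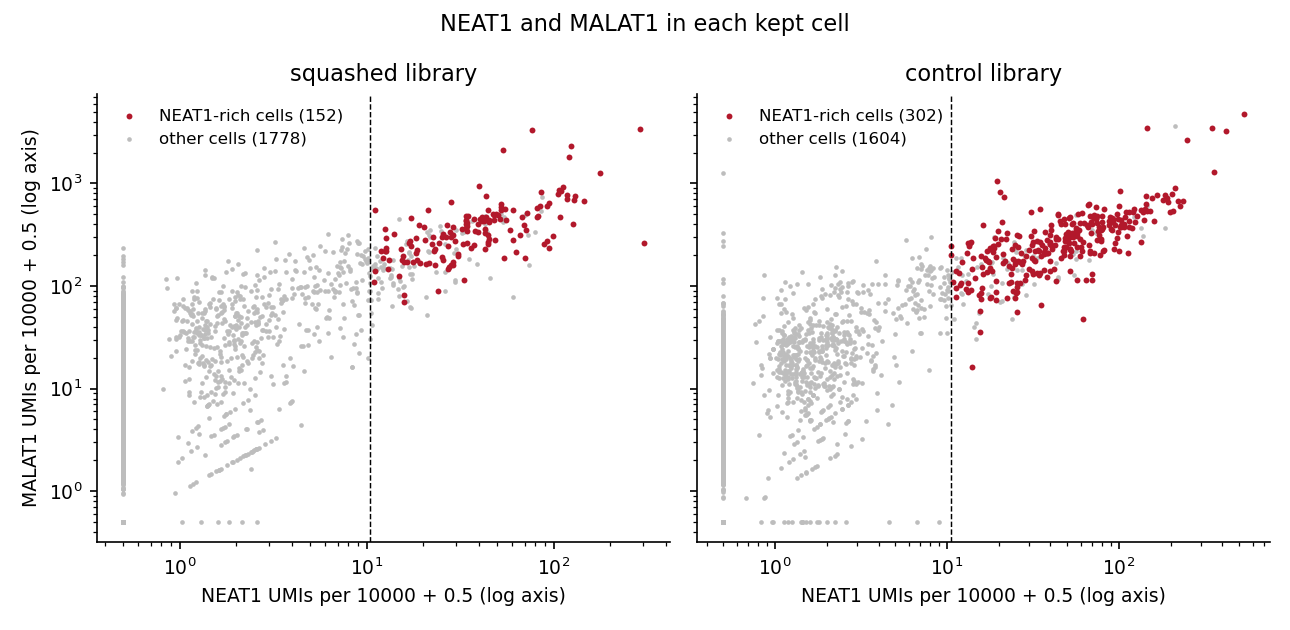
Each point is 1 kept cell, with NEAT1 on the x axis and MALAT1 on the y axis, both in UMIs per 10000 plus 0.5 on log axes, and the dashed line is the NEAT1 threshold of 10. The NEAT1-rich cells (152 squashed, 302 control) continue the rise of MALAT1 with NEAT1 seen below the threshold, and grey points to the right of the line are cells over the TOP2A or HIST1H4C limit.

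Other nuclear long non-coding RNAs were higher in NEAT1-rich cells as well, while paraspeckle proteins were not. A gene counted as measured with at least 20 CPM on either side, and as higher or lower at 2-fold. Of the list of nuclear long non-coding RNAs, without NEAT1, 7 of 12 measured genes were higher and 0 lower in the squashed library, where 12.9% of all 4589 measured genes were higher and 5.34% lower. In the control library 9 of 13 were higher and 0 lower, against 19.7% higher and 7.47% lower among 5157 genes. The list's median log2 ratio stood 1.04 above the median of all genes (0.18) in the squashed library and 1.40 above it (0.22) in the control library. KCNQ1OT1, the antisense RNA that silences the imprinted KCNQ1 domain, stood at 83.6 CPM in NEAT1-rich and 15.4 CPM in other squashed cells, and at 115 against 18.1 CPM in control cells (log2 ratios 2.44 and 2.67). FTX, a long non-coding RNA of the X inactivation centre, stood at 82.0 against 18.3 CPM in squashed cells and 191 against 28.3 CPM in control cells. The imprinted MEG3 had log2 ratios of 1.96 and 2.45.

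Of the paraspeckle proteins, 0 of 16 measured genes were higher and 1 lower in the squashed library, and 0 of 19 higher and 2 lower in the control library. Of all measured genes, 12.9% and 19.7% were higher, and 5.34% and 7.47% lower, so the lower shares were near those of all genes. The medians of the paraspeckle proteins stood 0.74 and 0.65 below those of all genes. Against the NEAT1-low cells, 1 of 16 was higher in the squashed and 1 of 18 in the control library, and 0 were lower. The lowest log2 ratios there were -0.84 and -0.70. SFPQ, a core paraspeckle protein, was at 50.7 CPM in NEAT1-rich and 120 CPM in other squashed cells, and at 81.5 against 178 CPM in control cells (log2 ratios -1.23 and -1.12, the control one -0.92 with every cell given the same weight). HNRNPA1, an abundant splicing repressor, stood at 407 against 752 CPM and at 544 against 917 CPM, under 2-fold in both libraries. Among SR proteins and splicing kinases the direction over other cells was mixed. SRSF5 stood at 158 against 79.1 CPM in squashed cells and 263 against 99.1 CPM in control cells, with a squashed ratio just past 2-fold that was under it in 5 alternatives. SRSF3 stood at 154 against 383 CPM and 172 against 483 CPM, so the ratios of these splicing factors over other cells had opposite signs in both libraries. Against the NEAT1-low cells, 12 of 19 genes of this list were higher in the squashed and 11 of 22 in the control library. There 0 were lower, and 35.9% and 36% of all measured genes were higher.

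KCNQ1OT1, FOS and SOX4 were also found in a larger share of NEAT1-rich cells once depth was made equal. Unthinned, they had a UMI in 59.9%, 61.8% and 88.2% of squashed NEAT1-rich cells and in 66.6%, 62.3% and 87.7% of control NEAT1-rich cells. After thinning to 2000 UMIs, which left out 7 squashed and 15 control members, SOX4 had a UMI in 35.2% of 145 NEAT1-rich and 7.03% of 1637 other squashed cells. In the control library SOX4 was found in 36.9% of 287 NEAT1-rich cells. KCNQ1OT1 was found in 12.4% of squashed NEAT1-rich and 1.41% of other squashed cells, and in 17.1% of control NEAT1-rich and 1.5% of other control cells. FOS was found in 10.3% of squashed NEAT1-rich and 1.28% of other squashed cells. The NEAT1-low cells gave lower shares still at the same depth. In the squashed library these were 0.60% for KCNQ1OT1, 0.12% for FOS and 2.52% for SOX4.

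Immediate early genes, the transcription factors and signal inhibitors that cells switch on within minutes of a stimulus, were the list furthest above all genes in both libraries. Of those measured, 14 of 17 were higher and 0 lower in the squashed library, and 19 of 23 higher and 0 lower in the control library, with medians 1.29 and 1.41 above all genes. Of all measured genes, 12.9% and 19.7% were higher. FOS, a subunit of the AP-1 factor, stood at 75.8 CPM in NEAT1-rich and 12.3 CPM in other squashed cells (log2 ratio 2.62, 2.36 to 2.88). In the control library FOS stood at 88.0 against 9.72 CPM (3.18, 2.94 to 3.42). FOSB, another AP-1 subunit, was at 48.2 against 9.83 CPM in squashed cells and 42.8 against 5.26 CPM in control cells. EGR1, a zinc finger factor, was at 24.1 against 6.01 CPM and at 40.04 against 5.64 CPM. Against the NEAT1-low cells, 16 of 16 were higher in the squashed library and 21 of 22 in the control library, where 35.9% and 36% of all measured genes were higher.

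The promoters of FOS and EGR1 are shown because both genes were among those of this list with the largest ratios, and the capitals mark TGACGT, the core of the cAMP response element, on either strand. Each runs from 250 bases before to 50 bases after the gene start on GRCh38.p14, from RefSeq, FOS at chr14:75278578-75278877 and EGR1 at chr5:138465229-138465528, both on the plus strand. The letters occur 1 time in FOS and, as the reverse complement, 2 times in EGR1.
FOS: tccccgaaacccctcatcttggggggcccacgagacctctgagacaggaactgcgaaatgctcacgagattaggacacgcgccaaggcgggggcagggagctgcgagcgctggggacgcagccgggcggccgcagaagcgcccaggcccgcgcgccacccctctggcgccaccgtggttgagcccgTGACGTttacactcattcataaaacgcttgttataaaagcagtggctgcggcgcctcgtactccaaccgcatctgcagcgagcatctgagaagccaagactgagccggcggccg
EGR1: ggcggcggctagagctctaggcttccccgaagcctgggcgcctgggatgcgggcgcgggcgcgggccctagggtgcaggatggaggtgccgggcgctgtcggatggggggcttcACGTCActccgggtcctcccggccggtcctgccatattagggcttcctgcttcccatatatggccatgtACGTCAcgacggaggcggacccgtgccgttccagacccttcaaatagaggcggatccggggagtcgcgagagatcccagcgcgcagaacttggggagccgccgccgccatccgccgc
They were present in 10 of the 25 immediate early genes with a promoter in the table (40%, of 35 on the list) and in 7.98% of all 35116 promoters. A listed gene counted with a match at any of its starts, while all promoters were counted singly, so these shares differ in unit. A match of letters describes the sequence and shows no binding.

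Transcription factors of lung epithelium and of the SOX family were higher as a group. In each library 7 of 11 measured genes were higher and 0 lower, with medians 1.09 above all genes in squashed and 1.01 in control cells. Of all measured genes, 12.9% were higher in the squashed and 19.7% in the control library. SOX4, a factor of progenitor and tumour cells (ENSG00000124766, chr6:21593751-21598619), stood at 297 CPM in NEAT1-rich and 71.6 CPM in other squashed cells, and at 245 against 46.4 CPM in control cells (log2 ratios 2.05 and 2.40). KLF5, an epithelial zinc finger factor, stood at 23.5 against 6.95 CPM and at 33.7 against 7.80 CPM. ELF3, an ETS factor of epithelia, stood at 189 against 67.2 CPM and at 254 against 89.5 CPM. The ELF3 ratios, 1.49 and 1.51, were under 2-fold with TMM scaling.

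Targets of p53 were higher in part, and none was lower. In the squashed library 10 of 20 measured targets were higher and in the control library 11 of 19, with medians 0.78 and 0.90 above all genes. CDKN1A, the p21 inhibitor of cyclin-dependent kinases, stood at 263 CPM in NEAT1-rich and 68.9 CPM in other squashed cells, and at 172 against 30.5 CPM in control cells (log2 ratios 1.93 and 2.50). MDM2, the ubiquitin ligase that holds p53 down, stood at 187 against 43.0 CPM and 145 against 33.3 CPM, a log2 ratio of 2.12 in both libraries. ZMAT3, an RNA-binding target of p53, stood at 41.9 against 9.29 CPM and 52.3 against 6.58 CPM. GDF15, a secreted stress cytokine, had ratios of 1.93 and 1.89. At 2000 UMIs per cell, CDKN1A had a UMI in 31.7% of squashed NEAT1-rich and 9.84% of NEAT1-low cells, and in 21.3% against 4.07% of control cells. Of the secreted senescence factors 0 of 10 were higher in the squashed library, against 12.9% of all genes, and 2 of 11 in the control library, near the 19.7% of all genes.

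The single genes of at least 50 CPM with the largest ratios in both libraries included PAPPA, FN1, CLDN2, ABCA1 and IGFL2-AS1. PAPPA, a protease that releases insulin-like growth factors, stood at 1243 CPM in NEAT1-rich and 254 CPM in other squashed cells, and at 1153 against 194 CPM in control cells (log2 ratios 2.29 and 2.57). FN1, the matrix protein fibronectin, stood at 286 against 50.4 CPM in squashed cells and 502 against 54.5 CPM in control cells. CLDN2, a pore-forming tight junction protein, stood at 81.4 against 14.2 CPM and 146 against 25.9 CPM. ABCA1, a cholesterol exporter, had log2 ratios of 2.13 and 2.57. IGFL2-AS1, an antisense RNA, had ratios of 2.32 and 3.83, and since the files do not say whether strand was used in counting, its reads cannot be told apart from those of overlapping genes. The plot of leading genes sets the 4 groups of cells side by side.

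**Figure D2:**
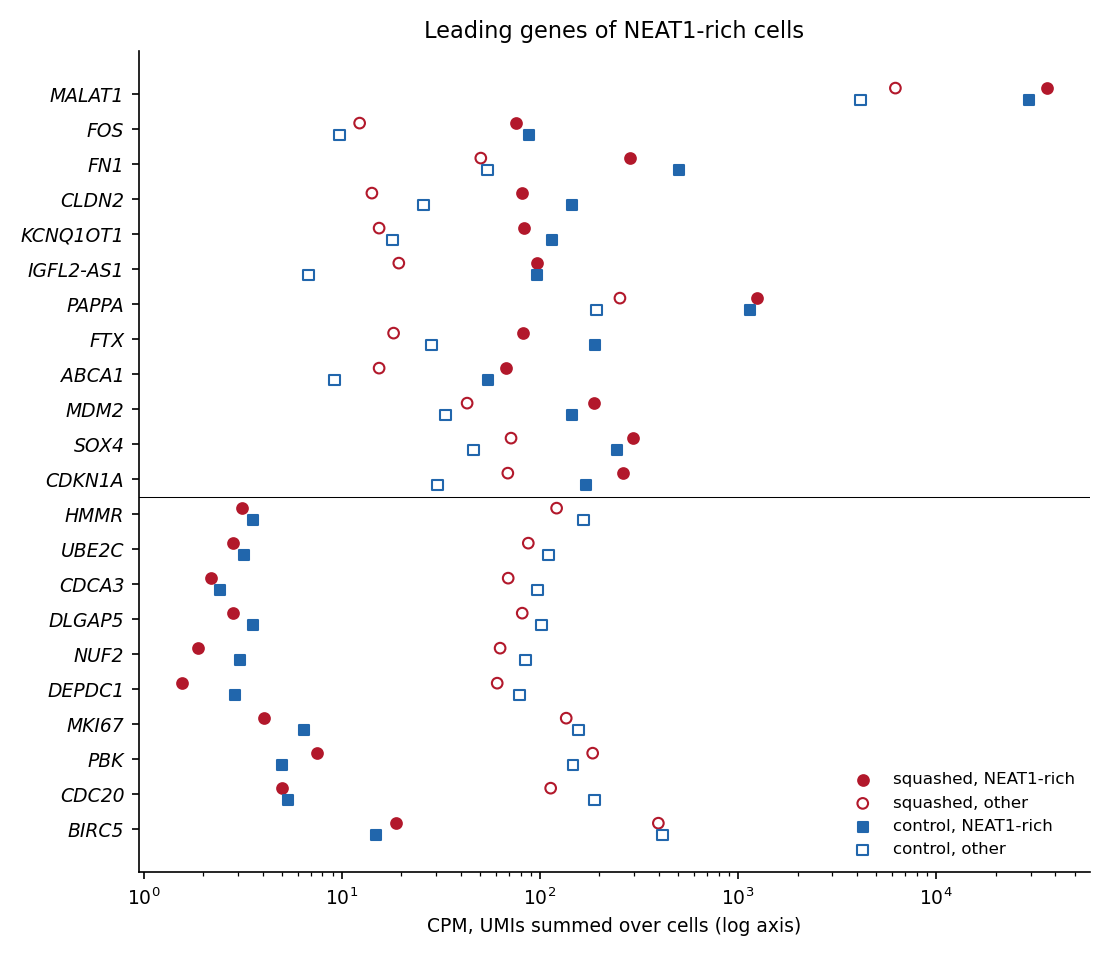
CPM on a log axis of the leading genes of NEAT1-rich cells, filled symbols for NEAT1-rich and open symbols for other cells, red circles for squashed and blue squares for control. Filled symbols lie right of open ones for the 12 upper genes, such as MALAT1 at 36097 against 6233 CPM in squashed cells, and left of them for the 10 mitotic genes below the line, such as HMMR at 3.13 against 122 CPM.

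Genes of mitosis and of DNA replication were low against other cells. Other cells include those over the TOP2A and HIST1H4C limits, so these values are not independent of the choice and do not check the label. Of the G2/M genes, 44 of 49 measured were lower in squashed NEAT1-rich cells and 47 of 51 in control NEAT1-rich cells, and 0 were higher. Over the same other cells, 5.34% of all measured genes were lower in the squashed and 7.47% in the control library. HMMR, a spindle protein, stood at 3.13 CPM against 122 CPM in squashed cells and 3.55 against 166 CPM in control cells. MKI67, the proliferation marker Ki-67, stood at 4.07 against 136 CPM and 6.46 against 157 CPM. BIRC5, the survivin subunit of the chromosomal passenger complex, stood at 18.8 against 397 CPM and 14.9 against 416 CPM. CKAP2L and GTSE1 had 0 UMIs in squashed NEAT1-rich cells, and setting them to 3 counts left the list's median log2 ratio at -3.69. Against the NEAT1-low cells, which pass the same limits, 23 of 34 G2/M genes were lower and 2 higher in the squashed library (1.6% of all genes lower) and 37 of 45 in the control library (4.25%). Of the G1/S genes, 22 of 26 were lower in squashed and 20 of 27 in control NEAT1-rich cells over other cells, where 5.34% and 7.47% of all genes were. Against the NEAT1-low cells only 2 of 11 G1/S genes were lower in the squashed library and 10 of 20 in the control library. RRM2, a subunit of ribonucleotide reductase, stood at 3.44 CPM against 66.2 CPM in other squashed cells and at 4.198 CPM against 85.2 CPM in other control cells.

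Housekeeping gene groups were a smaller part of the RNA of NEAT1-rich cells. Cytosolic ribosomal proteins, 86 genes, took 26.3% of UMIs in squashed NEAT1-rich against 33.6% in other squashed cells, and 24.7% against 31.4% in the control library. The 13 mitochondrially encoded genes took 12.5% against 8.43% in squashed cells and 13.6% against 7.63% in control cells, a difference opposite in sign to that of the ribosomal protein genes. Nuclear genes of oxidative phosphorylation had medians 0.36 below all genes in the squashed library and 0.61 below in the control library. Glycolysis genes were 0.65 and 0.62 below. GAPDH, a glycolytic enzyme, stood at 4413 CPM in NEAT1-rich and 6368 CPM in other squashed cells, and at 3127 against 5524 CPM in control cells, under 2-fold in both. TMM scaling, which centres on genes of middling ratio, moved every ratio of NEAT1-rich over other cells by -0.53 in the squashed and -0.67 in the control library. With it 165 genes were higher and 687 lower in the squashed library, against 591 higher and 245 lower in CPM, and 298 higher and 1305 lower in the control library, against 1016 and 385. Ratios between 1 and 1.53 in the squashed library, or 1.67 in the control library, are thus under 2-fold with TMM scaling.

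The plot of list medians gives all groups relative to the median of all measured genes, since a scaling moves both alike. Lamin and nuclear envelope genes were mixed, with 1 higher and 3 lower of 11 measured in the squashed library and 3 and 3 of 13 in the control library. Of all measured genes, 12.9% were higher and 5.34% lower in the squashed library, and 19.7% and 7.47% in the control library. TMPO, a lamina-associated protein, stood at 3.76 against 31.8 CPM in squashed cells and 13.1 against 57.1 CPM in control cells, and its squashed log2 ratio of -3.02 was -0.62 in thinned cells. YAP and TEAD targets, genes of mechanical signalling, stood 0.52 and 0.58 above all genes. Of them 0 of 7 and 2 of 9 were higher, so the control share was near the 19.7% of all genes and the squashed share under the 12.9%. Targets of NRF2, the antioxidant factor that is active in A549, had 6 of 24 and 5 of 24 higher, where 12.9% and 19.7% of all genes were, so the control share was near that of all genes. AKR1C1, an aldo-keto reductase, stood at 1334 against 462 CPM in squashed cells and 1232 against 380 CPM in control cells.

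**Figure D3:**
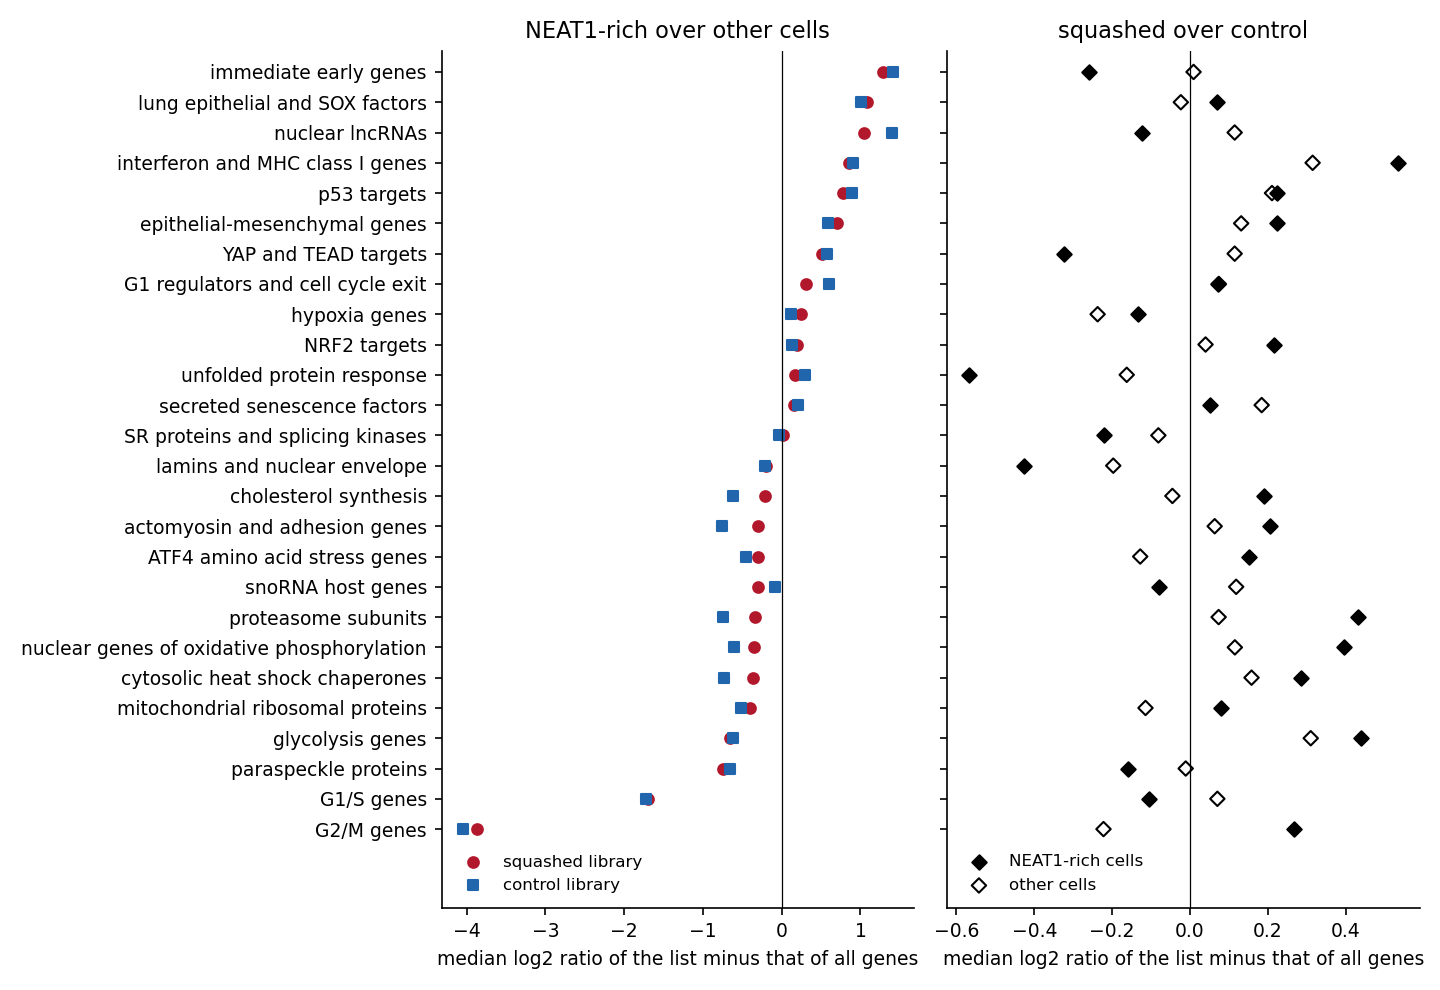
Median log2 ratio of each gene list minus that of all measured genes, for the 26 lists with at least 5 measured genes in every comparison drawn. Left, NEAT1-rich over other cells in the squashed (red circles) and control (blue squares) library, from immediate early genes at 1.29 and 1.41 down to G2/M genes at -3.86 and -4.05. Right, squashed over control in NEAT1-rich cells (filled) and other cells (open), where interferon and MHC class I genes stand highest in NEAT1-rich cells at 0.53 and the unfolded protein response lowest at -0.57.

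The genes that set NEAT1-rich cells apart overlapped between the libraries. Of the genes higher in NEAT1-rich cells, 466 were higher in both libraries, which is 78.8% of the squashed and 45.9% of the control library's genes. Of the lower genes, 221 were lower in both (90.2% and 57.4%), and 0 were called in opposite directions.

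NEAT1-rich cells were not uniform, and several genes differed in level between classes of NEAT1. Cells with 10 to 20, 20 to 50 and at least 50 NEAT1 UMIs per 10000 numbered 33, 72 and 47 in the squashed and 59, 105 and 138 in the control library. FN1 stood at 128, 237 and 527 CPM across these classes in squashed cells and at 123, 366 and 759 CPM in control cells. FOS stood at 42.1, 65.6 and 126 CPM in squashed cells and 32.2, 86.5 and 112 CPM in control cells, so both genes were highest where NEAT1 was highest. TUBA1B, an alpha-tubulin gene, ran the other way, with 732, 414 and 288 CPM in squashed and 319, 150 and 128 CPM in control cells. KCNQ1OT1 stood at 52.3, 63.3 and 154 CPM in squashed cells but at 113, 111 and 119 CPM in control cells. The median mitochondrial share was 12.7%, 12.5% and 10.04% in squashed cells and 13.9%, 13.3% and 13.3% in control cells.

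Between conditions, NEAT1-rich cells were compared with each other and the same ratio in other cells was set beside them. Of 4986 measured genes, 81 were higher in squashed than in control NEAT1-rich cells (1.62%) and 292 were lower (5.86%). In other cells 52 of 4126 were higher (1.26%) and 208 lower (5.04%). Of these, 34 higher genes were shared, 42.0% of those in NEAT1-rich cells and 65.4% of those in other cells, and 132 lower genes, 45.2% and 63.5%. With TMM scaling, which moves these ratios by 0.14, 121 genes were higher and 203 lower in squashed NEAT1-rich cells. The median log2 ratio of all genes was -0.15 in NEAT1-rich and -0.12 in other cells. NEAT1 itself stood at 4190 CPM in squashed and 5862 CPM in control NEAT1-rich cells.

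TRIML2, a tripartite motif family protein, had the largest ratio of the genes with at least 50 CPM, at 101 CPM in squashed and 16.0 CPM in control NEAT1-rich cells (log2 ratio 2.65, 2.33 to 3.0), and 34.0 against 9.07 CPM in other cells. HES1, a transcriptional repressor downstream of Notch, stood at 104 CPM in squashed and 30.7 CPM in control NEAT1-rich cells (1.75, 1.49 to 2.02). HES1 was also higher in NEAT1-rich than in other cells of each library, at 104 against 17.2 CPM in squashed cells and 30.7 against 3.15 CPM in control cells. MRPL12, a mitochondrial ribosomal protein, had the lowest ratio of these genes, at 4.70 CPM in squashed and 60.5 CPM in control NEAT1-rich cells (-3.64, -4.54 to -2.95). Its ratio in other cells was -3.65. PPDPF stood at 26.9 CPM in squashed and 194 CPM in control NEAT1-rich cells, and DDT, a tautomerase with a near-identical neighbouring copy, at 26.6 and 147 CPM. Their log2 ratios in other cells were -3.15 and -3.03, further from 0 than in NEAT1-rich cells (-2.84 and -2.46). Among genes with short transcripts, at most 500 bases, 13 of 58 were higher in squashed NEAT1-rich cells with a median ratio of 0.57, against 66 of 4911 and -0.15 for longer ones. Other cells were alike, with 13 of 56 higher and a median of 0.46, against 36 of 4053 and -0.12. ATP5ME, part of the membrane sector of ATP synthase, was at 496 CPM in squashed and 115 CPM in control NEAT1-rich cells, and at 577 against 158 CPM in other cells.

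Of 14 measured genes of the unfolded protein response, 4 were lower and 0 higher in squashed than in control NEAT1-rich cells, with a median 0.57 below all genes. Of all genes, 5.86% were lower in NEAT1-rich cells and 5.04% in other cells. In other cells 3 of 11 genes of this list were lower, with a median 0.16 below all genes. MANF, a protein secreted under endoplasmic reticulum stress, stood at 9.70 CPM in squashed and 44.9 CPM in control NEAT1-rich cells (log2 ratio -2.19), with a ratio of -2.06 in other cells. HERPUD1, part of the degradation machinery of that compartment, stood at 11.6 against 49.1 CPM in NEAT1-rich cells (-2.07) and 5.61 against 14.6 CPM in other cells, where it was under 20 CPM. DNAJB11 and DNAJB9, both chaperone partners of BiP, had log2 ratios of -1.29 and -1.35, which were -0.77 and -0.56 with cells thinned to 2000 UMIs. IER3, a stress-induced immediate early gene, stood at 36.9 CPM in squashed and 152 CPM in control NEAT1-rich cells (-2.03), and at 16.0 against 65.0 CPM in other cells (-2.02). KRT18 stood at 1021 against 2529 CPM in NEAT1-rich cells (-1.31, and -0.51 with at most 10% mitochondrial UMIs) and at 483 against 1447 CPM in other cells (-1.58). MANF, IER3 and KRT18 were thus past 2-fold lower in squashed cells of both kinds.

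For some genes the ratio of squashed over control was further from 0 in NEAT1-rich than in other cells. TUBA1B was at 451 CPM in squashed and 172 CPM in control NEAT1-rich cells (log2 ratio 1.39, 1.27 to 1.5), and at 1316 against 1218 CPM in other cells (0.11). TUBB4B, a beta-tubulin, had ratios of 0.98 in NEAT1-rich and -0.22 in other cells, and FABP5, a fatty acid binding protein, 0.98 and -0.09. SAT1, the enzyme that acetylates polyamines, stood at 820 CPM in squashed and 1400 CPM in control NEAT1-rich cells (-0.78), and at 439 against 418 CPM in other cells. Metallothioneins differed the other way round. MT2A stood at 1337 CPM in squashed and 945 CPM in control NEAT1-rich cells (0.50), but at 2726 against 962 CPM in other cells (1.5). Tubulin and metallothionein genes have near-identical copies, so how reads were split among them is uncertain, and these differences between ratios were not tested. With at most 10% mitochondrial UMIs the TUBA1B ratio was 0.89.

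**Figure D4:**
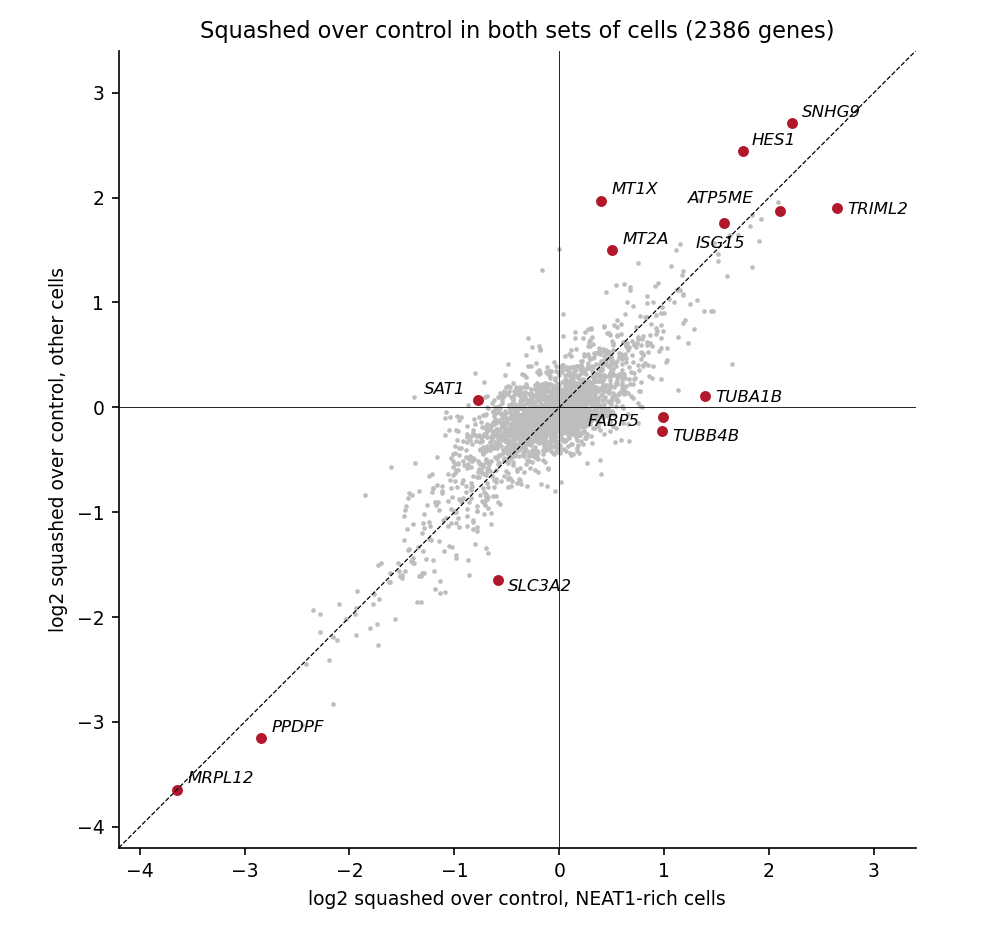
Log2 ratio of squashed over control in NEAT1-rich cells (x axis) and in other cells (y axis) for 2386 genes with at least 50 CPM in NEAT1-rich cells of either library, with the dashed line at equal ratios. Most genes lie along the line, such as MRPL12 at -3.64 and -3.65, while TUBA1B (1.39 and 0.11) lies right of it and MT2A (0.50 and 1.5) above it.

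The interferon-stimulated gene ISG15 was higher in NEAT1-rich than in other cells of both libraries, and stood highest in squashed NEAT1-rich cells. IFIT1 was higher in squashed NEAT1-rich than in other squashed cells and was under 20 CPM in both groups of control cells. Of the interferon and MHC class I list, 9 of 15 measured genes were higher in squashed NEAT1-rich cells than in other squashed cells and 8 of 11 in the control library, with 0 lower. Of all measured genes, 12.9% were higher in the squashed and 19.7% in the control library. Against the NEAT1-low cells, 6 of 15 were higher in the squashed and 5 of 11 in the control library, near the 35.9% and 36% of all genes. Over other squashed cells, ISG15 had a log2 ratio of 1.51 in NEAT1-rich cells, and of 0.68 in thinned cells. Between conditions, 5 of 16 were higher and 2 lower in squashed NEAT1-rich cells, with a median 0.53 above all genes. Of all genes, 1.62% were higher and 5.86% lower in this comparison. In other cells 1 of 10 measured genes of the list was higher and 1 lower in the squashed library. Their median stood 0.31 above all genes, and the highest ratio was 1.76. Of all genes in other cells, 1.26% were higher and 5.04% lower. ISG15, a ubiquitin-like protein, stood at 224 CPM in squashed and 75.4 CPM in control NEAT1-rich cells (log2 ratio 1.57), and at 79.1 against 23.3 CPM in other cells. IFIT1, which binds foreign RNA, stood at 42.3 against 7.43 CPM in NEAT1-rich cells (2.50, 2.02 to 3.02) and 8.69 against 3.38 CPM in other cells. IFIT3, its partner, stood at 44.5 against 9.37 CPM. The MHC class I gene HLA-C ran the other way, at 22.5 CPM in squashed and 45.4 CPM in control NEAT1-rich cells (-1.0), a ratio between -1.12 and -0.16 under the alternatives, and its ratio in other cells was -0.92.

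A few cells carried much of this signal. The sum of IFIT1, IFIT2, IFIT3, ISG15 and IFI27 had a median of 0.96 UMIs per 10000 in squashed NEAT1-rich cells (range 0 to 318) and 0.39 in control NEAT1-rich cells (range 0 to 26.4), and 0 in other cells of both libraries. It was at least 5 in 20 of 152 squashed and 12 of 302 control NEAT1-rich cells, and 0 in 32 and 127. The 3 highest squashed cells had 318, 92.3 and 49.2. The cell with most UMIs of each gene held 42.5% of the IFIT2 UMIs, 28.9% of the IFIT3 UMIs and 52.0% of the IFI27 UMIs of squashed NEAT1-rich cells. Without that cell in each library the log2 ratio was 1.96 for IFIT2, 1.88 for IFIT3, 1.39 for ISG15 and 2.39 for IFI27. ISG15 had a UMI in 72.4% of squashed and 47.0% of control NEAT1-rich cells, and IFIT1 in 30.3% and 9.6%. With at most 10% mitochondrial UMIs, which leaves 40 squashed and 55 control members, the ratios were 0.95 for IFIT1, 0.59 for IFIT2 and 0.69 for IFIT3, under 2-fold, and 1.02 for ISG15.

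**Figure D5:**
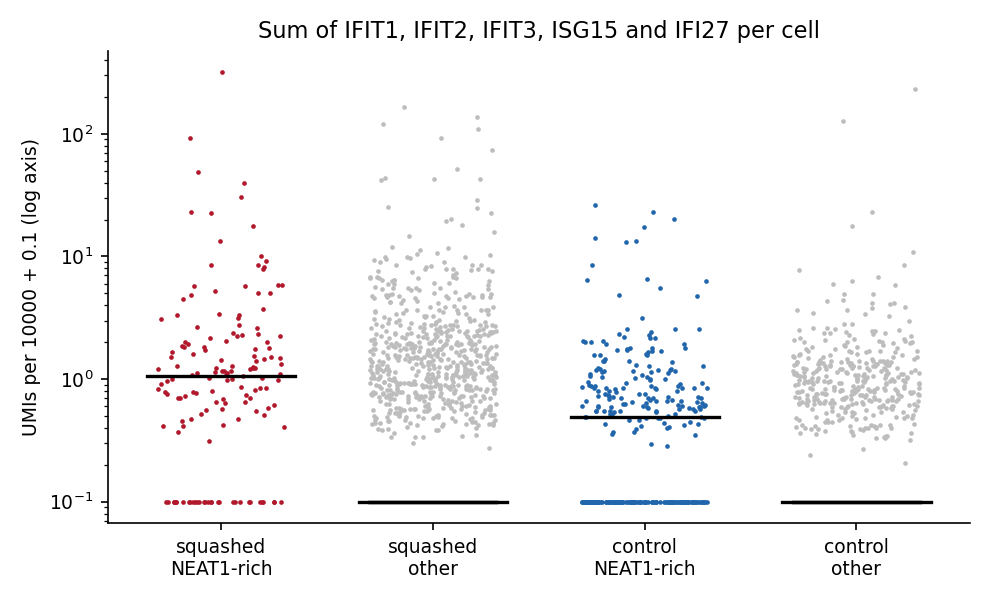
Sum of IFIT1, IFIT2, IFIT3, ISG15 and IFI27 in each cell, in UMIs per 10000 plus 0.1 on a log axis, with a black line at the median of each group; cells without a UMI lie at the bottom. The median is 0.96 in squashed and 0.39 in control NEAT1-rich cells and 0 in both groups of other cells, which also hold a few cells over 100.

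The promoters of IFIT1 and ISG15 are shown because both genes were past 2-fold higher in squashed NEAT1-rich cells, over other squashed cells and over control NEAT1-rich cells, and the capitals mark TTTC, any 2 bases and TTTC again, the letters of the interferon-stimulated response element, searched on both strands. They cover the same window around the start on GRCh38.p14, from RefSeq, IFIT1 at chr10:89392373-89392672 and ISG15 at chr1:1013247-1013546, both on the plus strand. In ISG15 2 overlapping matches lie on the reverse strand and form 1 run of capitals.
IFIT1: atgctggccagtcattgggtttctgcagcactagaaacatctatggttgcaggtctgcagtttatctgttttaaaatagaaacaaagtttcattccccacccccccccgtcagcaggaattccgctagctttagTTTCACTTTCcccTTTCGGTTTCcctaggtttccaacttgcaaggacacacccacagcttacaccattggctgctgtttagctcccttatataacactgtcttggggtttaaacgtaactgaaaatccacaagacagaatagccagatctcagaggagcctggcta
ISG15: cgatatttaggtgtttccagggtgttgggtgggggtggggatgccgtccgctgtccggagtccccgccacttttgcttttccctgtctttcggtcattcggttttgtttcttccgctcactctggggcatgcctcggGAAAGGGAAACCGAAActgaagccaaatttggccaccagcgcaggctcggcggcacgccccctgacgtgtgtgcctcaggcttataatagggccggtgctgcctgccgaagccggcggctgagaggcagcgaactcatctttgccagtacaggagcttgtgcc
The letters were present in 11 of the 17 listed genes with a promoter in the table (64.7%, of 22 on the list) and in 3.57% of all 35116 promoters. Here too a listed gene counted with a match at any of its starts, and all promoters were counted singly.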

How the data were processed

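Single-cell RNA was measured in 1 squashed and 1 control library with the Chromium 3.1 kit named in the labels' design text. The authors deposited raw UMI counts, whole numbers for each gene and barcode, without normalization per the file headers. Cell Ranger made them against GRCh38, version 4.0.0 per the file headers and 5.0.1 per the labels' design text, and the submitters' processing notes name R 4.3.2 for no stated step. How barcodes were called cells and whether strand was used are not given in the sources used here. Both libraries carry the same batch label.

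From these counts, cells were filtered and chosen as the report states, and 36601 genes were read. UMIs were summed over NEAT1-rich cells and over all other kept cells of each library, 3194533 and 20133790 UMIs in the squashed library and 6193256 and 21289136 in the control library, and scaled to CPM by those totals. Log2 ratios used a prior of 0.5 count and an exact binomial interval at the 95% level. Genes of at least 20 CPM on either side were measured, and 2-fold was called by size. With 1 library per group no p-value was computed. UMIs are not independent of PCR and capture, so intervals cover counting error only. Doublets were called with Scrublet in scanpy 1.11.5 and kept. For detection and complexity, cells were thinned to 2000 UMIs. TMM factors came from edgeR 4.0.16 in R 4.3.3, and other steps used numpy 2.4.6, pandas 2.3.3, scipy 1.17.1 and matplotlib 3.10.9 under Python 3.11.15. Positions came from GENCODE 44 on GRCh38 for 36366 genes, and promoters from RefSeq.

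Members and the 31 gene lists were chosen with earlier results of these data known. Named genes, apart from NEAT1, TOP2A, HIST1H4C and the proposed markers, were the 10 highest and 10 lowest by the ratio nearer to 0 of the 2 libraries, the 10 highest and lowest between conditions, the 6 in each direction whose ratio differed most between NEAT1-rich and other cells, all with at least 50 CPM, and up to 4 of each list. The scripts were tested on simulated data. Added after seeing the data were the run without a mitochondrial limit, the comparison with NEAT1-low cells, the run without the top cell of each gene, and the promoter motifs. The NEAT1 and IFIT2 promoters are not used here.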

Additional observations from a re-analysis of the deposited data

Results flagged for a closer look

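For some named genes the ratio of squashed over control had opposite signs in NEAT1-rich and in other cells, with neither counting interval reaching 0, and these differences were not tested. Higher in squashed NEAT1-rich cells and lower in other squashed cells were CKS2, a kinase subunit of the cell cycle (0.40 and -0.64), FABP5 (0.98 and -0.09), TUBA1C (0.67 and -0.32) and TUBB4B (0.98 and -0.22), both tubulins, SLC7A5, an amino acid transporter (0.59 and -0.31), GPX2, a glutathione peroxidase (0.39 and -0.50), FTL, the ferritin light chain (0.49 and -0.07), and NDUFA6 of complex I (0.29 and -0.16). The proteasome genes PSMA2 (0.17 and -0.18), PSMA7 (0.30 and -0.04), PSMB6 (0.40 and -0.04) and PSMD6 (0.65 and -0.16) had the same signs. TMM scaling moves the squashed over control ratios of other cells by 0.097, further than those of FABP5, FTL, PSMA7 and PSMB6 lie below 0. The signs of FABP5, FTL, PSMA7 and PSMB6 are thus opposite in CPM but not with TMM scaling. Lower in squashed NEAT1-rich cells and higher in other squashed cells were SAT1 (-0.78 and 0.07), HSPA1A, a heat shock chaperone (-0.52 and 0.13), and SNHG14, a non-coding host gene (-0.18 and 0.56).

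For the ratio of NEAT1-rich over other cells, the squashed and control libraries had opposite signs for FTL (0.18 and -0.38), SLC3A2, the partner of SLC7A5 (0.37 and -0.69), MT1X, a metallothionein (-0.73 and 0.84), and TRMT6, a tRNA methyltransferase subunit (-0.44 and 0.32). TMM scaling moves these ratios by -0.53 in the squashed and -0.67 in the control library, further than the positive ratios of FTL, SLC3A2 and TRMT6 lie above 0. Their opposite signs thus hold in CPM but not with TMM scaling. The differences between the libraries were not tested either.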

How the results depend on the processing

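No paired analysis was possible because each condition has 1 library. Leaving out doublets or a prior of 5 counts kept each share and count run within 1.5 times. The shares of NEAT1-rich cells, 7.88% of squashed and 15.8% of control cells, were 6.17% and 12.7% at a NEAT1 threshold of 20, 14.7% and 22.7% in cells of at least 10000 UMIs, 5.78% and 10.4% in thinned cells, 3.03% and 4.06% with at most 10% mitochondrial UMIs, and 13.4% and 22.4% with no such limit, lower in the squashed library each time. In the squashed library, genes higher in NEAT1-rich cells numbered 591, and 381 in cells of at least 10000 UMIs, 1373 in thinned cells, 1331 with at most 10% mitochondrial UMIs and 1175 with every cell given the same weight; in the control library they numbered 1016, and 1739 with at most 10% mitochondrial UMIs. Between conditions, 81 higher and 292 lower genes became 472 and 799 in thinned cells and 202 and 518 with at most 10% mitochondrial UMIs. TMM scaling gave 165 higher and 687 lower genes in the squashed and 298 and 1305 in the control library. Without a CPM minimum there were 8477 higher and 811 lower genes in the squashed library, 8425 and 1138 in the control library, and 2019 and 2497 between conditions. Against NEAT1-low cells there were 1574 and 70 in the squashed and 1787 and 211 in the control library. The causes of these moves were not tested. Of the named genes past 2-fold, 54 of 88 in the squashed and 64 of 104 in the control library were past it in each alternative counted. Between conditions 33 of 56 were. The comparison with NEAT1-low cells was left out of these counts. CDCA7 in the squashed library reversed to 0.014 in thinned cells and 0.34 against NEAT1-low cells, and JUND in the control library to -0.015 in thinned cells. Genes of a few CPM in 152 cells, such as MRPL12, rest on few UMIs, and differences between NEAT1-rich cells of the 2 libraries cannot be told apart from differences between libraries.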

Other observations

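Genes that span more than 100 kb of the genome were higher in NEAT1-rich cells more often than others. In the squashed library 210 of 817 such genes were higher (25.7%) and in the control library 397 of 968 (41.0%). In the 3 classes of shorter genes at least 7.64% and at most 11.8% were higher in the squashed library, and 156 of 1391, 62 of 439 and 399 of 2342 in the control library. The labels and file headers do not say whether reads in introns were counted, and their part in these shares was not tested. The genes higher in NEAT1-rich cells had a median span of 60.5 kb in the squashed and 70.9 kb in the control library, where all measured genes had 31.2 kb and 32.4 kb.

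Barcodes that the filters removed also met the NEAT1, TOP2A and HIST1H4C limits. These were 191 of 1202 removed squashed and 226 of 668 removed control barcodes, of which 175 and 185 were removed for mitochondrial UMIs over 20% alone. They are not part of the comparisons.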
